A study of Homo sapiens with 6 samples.

Results

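The genes described here are 32 targets that the transcription factor p53 is known to activate, out of 23204 gene symbols measured in the series. They were listed by name with earlier results of these data known, and the annotated transcript row of each symbol was selected on its mean level over the 6 libraries, the highest being kept. Of the 32 symbols 17 have more than 1 row, whose isoforms share reads. In most cells p53 is kept low because the ubiquitin ligase MDM2 marks it for degradation, and DNA damage, nucleolar stress and other insults let it accumulate. It then binds DNA at paired decamers and raises the transcription of genes that halt the cell cycle, repair DNA, trigger cell death or restrain p53 itself. HEK293T, the human embryonic kidney line used, carries the SV40 large T antigen, which binds p53 and holds back its activity, and adenoviral genes that also act on p53.

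RNA-seq was performed on 6 groups of HEK293T cells with 1 library each, so no difference between groups has a replicate check and no test across samples was possible. In the siRNA arm, cells received a control siRNA or an siRNA against DDX3X, an X-linked DEAD-box RNA helicase mutated in medulloblastoma, for 48 h. In the plasmid arm, cells were transiently transfected with 5 µg of plasmid for GFP or for GFP fused to DDX3X, either wild type or with the mutation T275M or G302V, and GFP-positive cells were collected by flow cytometry after 32 h, although a closing note of the same protocol gives 30 h. The siRNA-treated cells have no stated sort, and no depletion of endogenous DDX3X is stated for any plasmid group. Where the study plots these data, its legend names another mutant in place of T275M, and the sample labels were followed here. Values for the constructs are given in the order wild type, T275M, G302V unless stated otherwise. A comparison between the arms cannot separate transfection, time and sorting.

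Recovered depth was about 43720000 to 180870000 reads per library, with the DDX3X siRNA library 2.68 times as deep as its control. The label check on the targeted gene gave a DDX3X level of 31.3 RPKM (reads scaled to transcript length and to the total reads of the library) after DDX3X siRNA, 29.3% of that after control siRNA, and of 1906 to 3279 RPKM with the constructs beside 119 RPKM with GFP alone. The labels call the cells neuronal. Of 10 neuronal markers, 4 reached 1 RPKM in all 6 libraries with a summed level of 637 to 834 RPKM, carried mostly by the neurofilament genes NEFM and NEFL, whereas MAP2, ELAVL3 and STMN2 were under 0.1 RPKM in all 6. Of 6 epithelial markers 2 reached 1 RPKM in all 6 libraries (summed level 43.8 to 61.3 RPKM, KRT19 under 0.1), and of 6 embryonic kidney markers 3 did (20.8 to 25.9 RPKM, PAX8 under 0.1).

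To place the members beside the DNA element through which p53 acts, the sequence within 2500 bases on each side of the canonical transcript start of each gene (GRCh37, GENCODE version 44) was searched on both strands for the p53 consensus. This is a pair of decamers with up to 2 bases between them, each holding the C and the G of the core CNNG, and up to 2 mismatches at the other positions, the middle of the core included, were allowed. A match lay near 16 of the 32 members (50%) and near 1169 of 11026 expressed genes scanned (10.6%). With 1 mismatch at most, the shares were 18.8% of members and 1.72% of expressed genes. Many members became known as p53 targets through such elements, so these shares describe the list and no binding was measured. The matches of members whose levels are described in detail are given next, 5′ to 3′ on the strand of the gene, with the CNNG cores in capitals.
CDKN1A: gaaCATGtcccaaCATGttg
GADD45A: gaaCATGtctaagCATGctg
BTG2: acgCATGttcaggCATGcat
PLK2: aaaCATGcctggaCTTGccc
ZMAT3: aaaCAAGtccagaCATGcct
DDB2: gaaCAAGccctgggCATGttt
PMAIP1: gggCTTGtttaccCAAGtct
AEN: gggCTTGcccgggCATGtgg
SPATA18: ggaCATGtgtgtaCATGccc
FAS: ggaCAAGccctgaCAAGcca
MDM2: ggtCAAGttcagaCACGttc
GDF15: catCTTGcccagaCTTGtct

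Distances are to the start of the canonical transcript, which for some genes lies inside the annotated span. Upstream of that start lay the matches of CDKN1A (chr6:36644226-36644245, plus strand, 2256 bases before it, across the edge of the gene's annotated span), BTG2 (chr1:203272770-203272789, plus), PLK2 (chr5:57758101-57758120, minus), PMAIP1 (chr18:57566781-57566800, plus), AEN (chr15:89164537-89164556, plus) and GDF15 (chr19:18496118-18496137, plus, 841 bases before it and inside the gene's annotated span). Introns held those of GADD45A (chr1:68152458-68152477, plus), ZMAT3 (chr3:178787976-178787995, minus), SPATA18 (chr4:52918123-52918142, plus), FAS (chr10:90751066-90751085, plus) and MDM2 (chr12:69202703-69202722, plus). The match of DDB2 (chr11:47236530-47236550, plus) lay in an exon. Those of DDB2, PLK2 and ZMAT3 had 0 mismatches and that of GADD45A had 1. CCNG1 and BAX also held matches in introns. TP53INP1 and PHLDA3 had no match in this window, which says only that these letters were not found there.

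Most p53 target genes were higher in cells that expressed a GFP-DDX3X construct than in cells with GFP alone. They were 30, 30 and 29 of 32 for the 3 constructs, beside 62.1%, 62.2% and 54.8% of all genes. With median-ratio scaling of the libraries they were 26, 29 and 27, beside 41.6%, 46.2% and 47.4% of all genes. CDKN1A and GDF15 were past 2-fold with all 3 constructs, although the wild-type ratio of CDKN1A was under 2-fold with that scaling. All differences are log2 ratios of RPKM + 1, which understate the change of genes of low level, and 95% counting intervals follow in parentheses. In bulk RNA, a lower level cannot be told apart from fewer cells that express a gene. The 3 construct comparisons share the GFP library, and all 32 members passed the filter of 1 RPKM and 10 reads in at least 1 library of each. SPATA18 and GDF15 passed it through the construct libraries only.

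With wild type against GFP, 3 of 32 members were past 2-fold higher (CDKN1A, GADD45A and GDF15), against 0.232% of all genes measured. The median log2 ratio was 0.32 for the members and 0.05 for all genes. With T275M, 8 of 32 were past 2-fold higher (0.294% of all genes), which added BTG2, TP53INP1, SPATA18, FAS and PHLDA3, and the medians were 0.52 and 0.07. With median-ratio scaling BTG2, TP53INP1 and PHLDA3 fell under the threshold and 5 members stayed past it. With G302V, 3 of 32 were past 2-fold higher (0.0861% of all genes), namely CDKN1A, TP53INP1 and GDF15, and the medians were 0.38 and 0.03. No member was past 2-fold lower with any construct, where 0.0155%, 0.0774% and 0.219% of all genes were. These counts rest on the pseudocount of 1 RPKM, and with 10 RPKM they were 0, 1 and 0. Without SPATA18 and GDF15, 2, 6 and 2 of 30 members were past 2-fold higher, and the members' medians were 0.31, 0.51 and 0.36.

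At the lower threshold of 1.5-fold, 10, 12 and 6 members were higher with the constructs (1.97%, 2.25% and 1% of all genes). The share of all genes with a log2 ratio above 0 was 62.1%, 62.2% and 54.8%, and 41.6%, 46.2% and 47.4% with median-ratio scaling. Counting intervals lay above 0 for 26, 29 and 26 of 32 members, as for 41.1%, 44.2% and 35.1% of all genes. The 19 members of 10 RPKM or more on average had medians of 0.31, 0.48 and 0.33, where genes of that level had -0.00, -0.01 and -0.03. The 13 members of lower level had medians of 0.35, 0.56 and 0.55, beside 0.13, 0.16 and 0.10 for all genes of lower level. For 19 of 32 members (59.4%), all 3 construct libraries lay above GFP and above both siRNA libraries, which held for 19.3% of all 13137 genes measured.

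**Figure D1:**
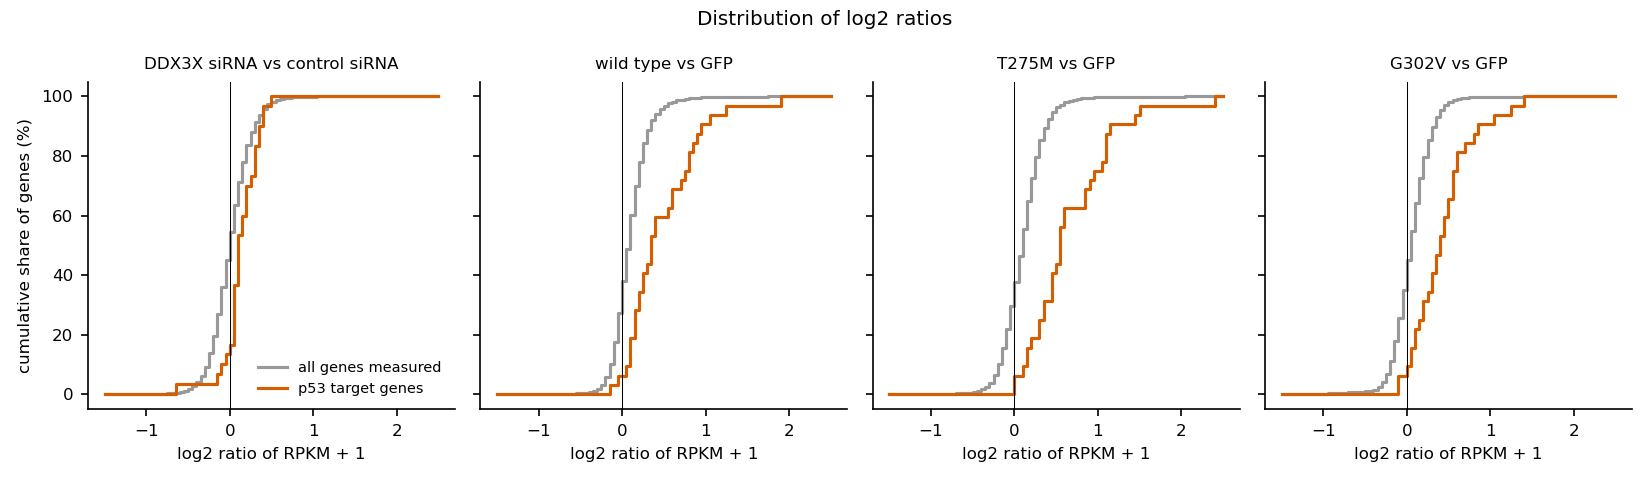
Cumulative share of genes (%) against the log2 ratio of RPKM + 1 in 4 comparisons, for the p53 target genes (orange) and all genes measured (grey). The orange line lies to the right of the grey line in the 3 construct panels, with member medians of 0.32, 0.52 and 0.38, and also to its right around 0 in the siRNA panel, where the medians were 0.09 for members and -0.02 for all genes.

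Among the 7 genes that act in cell cycle arrest, CDKN1A and GADD45A had the largest ratios. CDKN1A (chromosome 6, 36644237 to 36655114, plus strand), the gene of the cyclin-dependent kinase inhibitor p21, was at 5.54 RPKM with control siRNA, 6.88 with DDX3X siRNA, 7.38 with GFP, and 16.3, 22.7 and 21.1 RPKM with the constructs. The 3 construct libraries all lay above the 3 others. Its log2 ratios to GFP were 1.04 (0.94 to 1.15), 1.5 (1.40 to 1.60) and 1.40 (1.30 to 1.5). Its 4 rows, whose isoforms share reads and so are not separate measurements, gave nearly the same ratios, such as 1.04 to 1.06 with wild type.

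GADD45A (chromosome 1, 68150884 to 68154017, plus strand), a stress protein that binds p21 and PCNA, was at 9.92 and 10.1 RPKM with control and DDX3X siRNA, 13.1 with GFP and 32.1, 36.4 and 23.5 with the constructs. Here G302V was the lowest of the constructs and still above GFP, with log2 ratios of 1.23 (1.13 to 1.33), 1.41 (1.31 to 1.51) and 0.80 (0.69 to 0.91). BTG2, an antiproliferative cofactor of mRNA deadenylation, was at 13.7, 17.9 and 14.5 RPKM in the control siRNA, DDX3X siRNA and GFP libraries and at 23.3, 31.8 and 20.8 RPKM with the constructs. T275M carried BTG2 just past 2-fold over GFP, at 1.09 (1.01 to 1.16), whereas wild type gave 0.65 and G302V 0.50.

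PLK3, a polo-like kinase of the stress response, went from 2.31 RPKM with GFP to 3.85, 4.91 and 3.84 with the constructs, beside 1.61 and 1.93 in the siRNA arm. Its relative PLK2 was at 5.18 RPKM with GFP and 6.89, 7.76 and 4.76 with the constructs, and at 3.17 and 3.45 with control and DDX3X siRNA. For PLK2, G302V was therefore the lowest plasmid library, at a log2 ratio to GFP of -0.10 (-0.23 to 0.03), an interval that holds 0. ZMAT3, an RNA-binding zinc finger protein, was at 3.11 and 4.26 RPKM with control and DDX3X siRNA, 2.66 with GFP and 3.28, 4.41 and 4.38 with the constructs. Its 2 highest values came from the mutants, and the DDX3X siRNA library exceeded the wild-type library. The last member of the group, the cyclin CCNG1, was the highest of the 7 in level and lay between 105 and 120 RPKM in all 6 libraries.

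**Figure D2:**
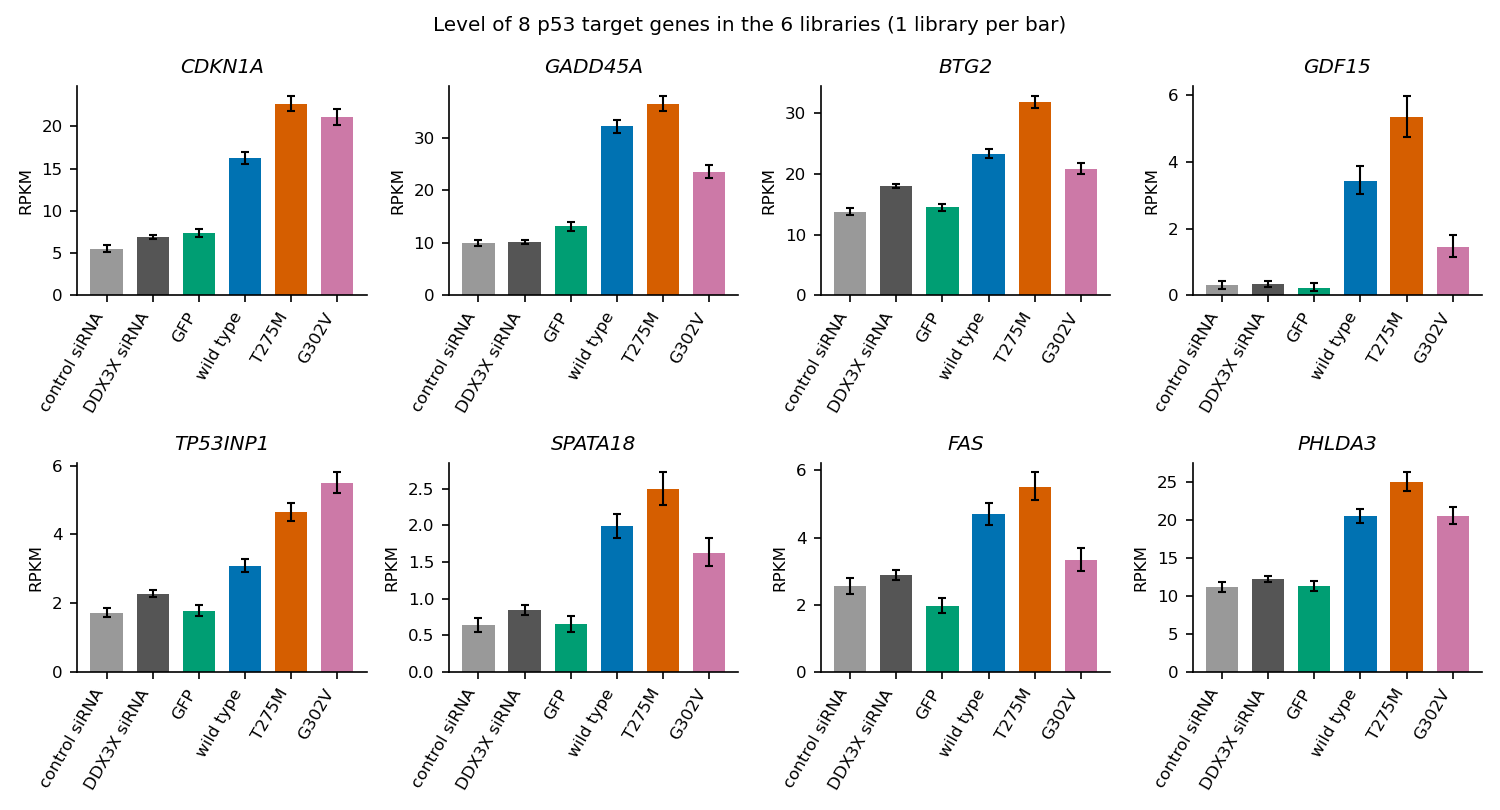
Level in RPKM of 8 p53 target genes, those past 2-fold with at least 1 construct, in each of the 6 libraries (1 library per bar), with 95% counting intervals as error bars. In each panel the 3 construct bars stand above the GFP bar, and GDF15 goes from 0.213 RPKM with GFP to 5.35 RPKM with T275M.

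DNA repair members were higher with the constructs in smaller steps, and none of the 5 was past 2-fold. DDB2, the damage sensor of nucleotide excision repair, was at 13.1 and 12.8 RPKM with control and DDX3X siRNA, 14.02 with GFP and 25.01, 27.8 and 18.9 with the constructs. The constructs did not overlap the 3 other libraries, and the log2 ratios were 0.79 (0.71 to 0.88), 0.94 (0.85 to 1.03) and 0.40 (0.31 to 0.50). POLH, the polymerase that copies past ultraviolet lesions, was at 4.37, 5.17 and 4.61 RPKM with control siRNA, DDX3X siRNA and GFP, and at 5.97, 7.04 and 7.0 RPKM with the constructs. XPC (the partner of DDB2 in damage recognition), RRM2B (a ribonucleotide reductase subunit) and ASCC3 (a helicase of alkylation repair) had log2 ratios to GFP of 0.11 to 0.42 over the 3 constructs, all with intervals above 0. Of the annotated XPC transcript, 30.0% lies across from exons of the antisense gene XPC-AS1, and no use of strand in the counting is stated.

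The 9 members grouped by hand under mitochondrial cell death had medians of 0.36, 0.52 and 0.35 with the constructs. Past 2-fold higher were 0, 2 and 1 of them, namely TP53INP1 and SPATA18 with T275M and TP53INP1 with G302V. BBC3, the gene of the BH3-only protein PUMA, was at 7.94 and 7.15 RPKM with control and DDX3X siRNA, 7.92 with GFP and 14.4, 14.8 and 11.6 with the constructs, which stood clear of the other libraries. SPATA18, a regulator of mitochondrial quality, was at 0.634, 0.845 and 0.649 RPKM with control siRNA, DDX3X siRNA and GFP, and at 1.98, 2.49 and 1.63 RPKM with the constructs. It therefore reached 1 RPKM in the construct libraries alone, and its ratio of RPKM without the added 1 was 3.84 for T275M over GFP.

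TP53INP1, which binds kinases of p53 and acts in autophagy, followed a different order. Its level was 1.72 and 2.28 RPKM with control and DDX3X siRNA, 1.77 with GFP and 3.09, 4.64 and 5.50 with the constructs. G302V was highest, with log2 ratios to GFP of 0.56 (0.46 to 0.66), 1.03 (0.92 to 1.13) and 1.23 (1.13 to 1.33). AEN, an apoptosis-enhancing nuclease, was at 35.9, 44.5 and 40.0 RPKM with control siRNA, DDX3X siRNA and GFP, and at 51.8, 58.0 and 51.2 RPKM with the constructs. The values of AEN with wild type and G302V were nearly equal.

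PMAIP1, the gene of the BH3-only protein NOXA, had opposite directions between constructs, with intervals that leave out 0. It was at 26.5 RPKM with control siRNA, 16.3 with DDX3X siRNA, 30.6 with GFP and 45.9, 44.4 and 27.7 with the constructs. Wild type and T275M were above GFP by 0.57 (0.51 to 0.63) and 0.52 (0.46 to 0.59) on the log2 scale, whereas G302V was at -0.14 (-0.21 to -0.06). Since these ratios share the GFP library, the direct comparison of G302V with wild type is the plainer value, at -0.71 (-0.78 to -0.64). The other 4 of this group were BAX (the pore-forming effector), APAF1 (the apoptosome scaffold), TP53I3 (a quinone oxidoreductase) and TRIAP1 (an inhibitor of apoptosis). Their log2 ratios to GFP stayed between -0.00 and 0.38 with the constructs. The annotated APAF1 transcript shares 10.4% of its bases with opposite-strand exons of ANKS1B.

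At the cell surface, the death receptor gene FAS differed from its TRAIL receptor relatives. FAS (chromosome 10, 90750414 to 90775542, plus strand) was at 2.55 and 2.88 RPKM with control and DDX3X siRNA, 1.97 with GFP and 4.70, 5.51 and 3.34 with the constructs. The constructs again did not overlap the 3 other libraries, and log2 ratios to GFP were 0.94 (0.80 to 1.08), 1.13 (0.99 to 1.28) and 0.55 (0.39 to 0.70). The lower bound for T275M lies just under the 2-fold threshold. The span of FAS overlaps that of ACTA2 on the opposite strand, and ACTA2, a smooth muscle actin, went from 1.59 RPKM with GFP to 7.10, 10.2 and 4.55 with the constructs. The transcripts compared share no exonic bases, and whether reads of one were counted for the other was not tested.

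PHLDA3, which restrains the kinase AKT at the membrane, was at 11.2 and 12.3 RPKM with control and DDX3X siRNA, 11.3 with GFP and 20.6, 25.1 and 20.6 with the constructs. Its ratios to GFP were 0.81 (0.71 to 0.92), 1.09 (0.98 to 1.2) and 0.82 (0.70 to 0.93), and the 3 libraries without a construct lay close together. By contrast, the TRAIL receptor genes TNFRSF10A and TNFRSF10B, the decoy receptor gene TNFRSF10D and PERP, a membrane protein of desmosomes, had ratios to GFP of -0.16 to 0.32 over the 3 constructs. The TNFRSF10 genes are close paralogs, so the division of reads between them is uncertain.

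**Figure D3:**
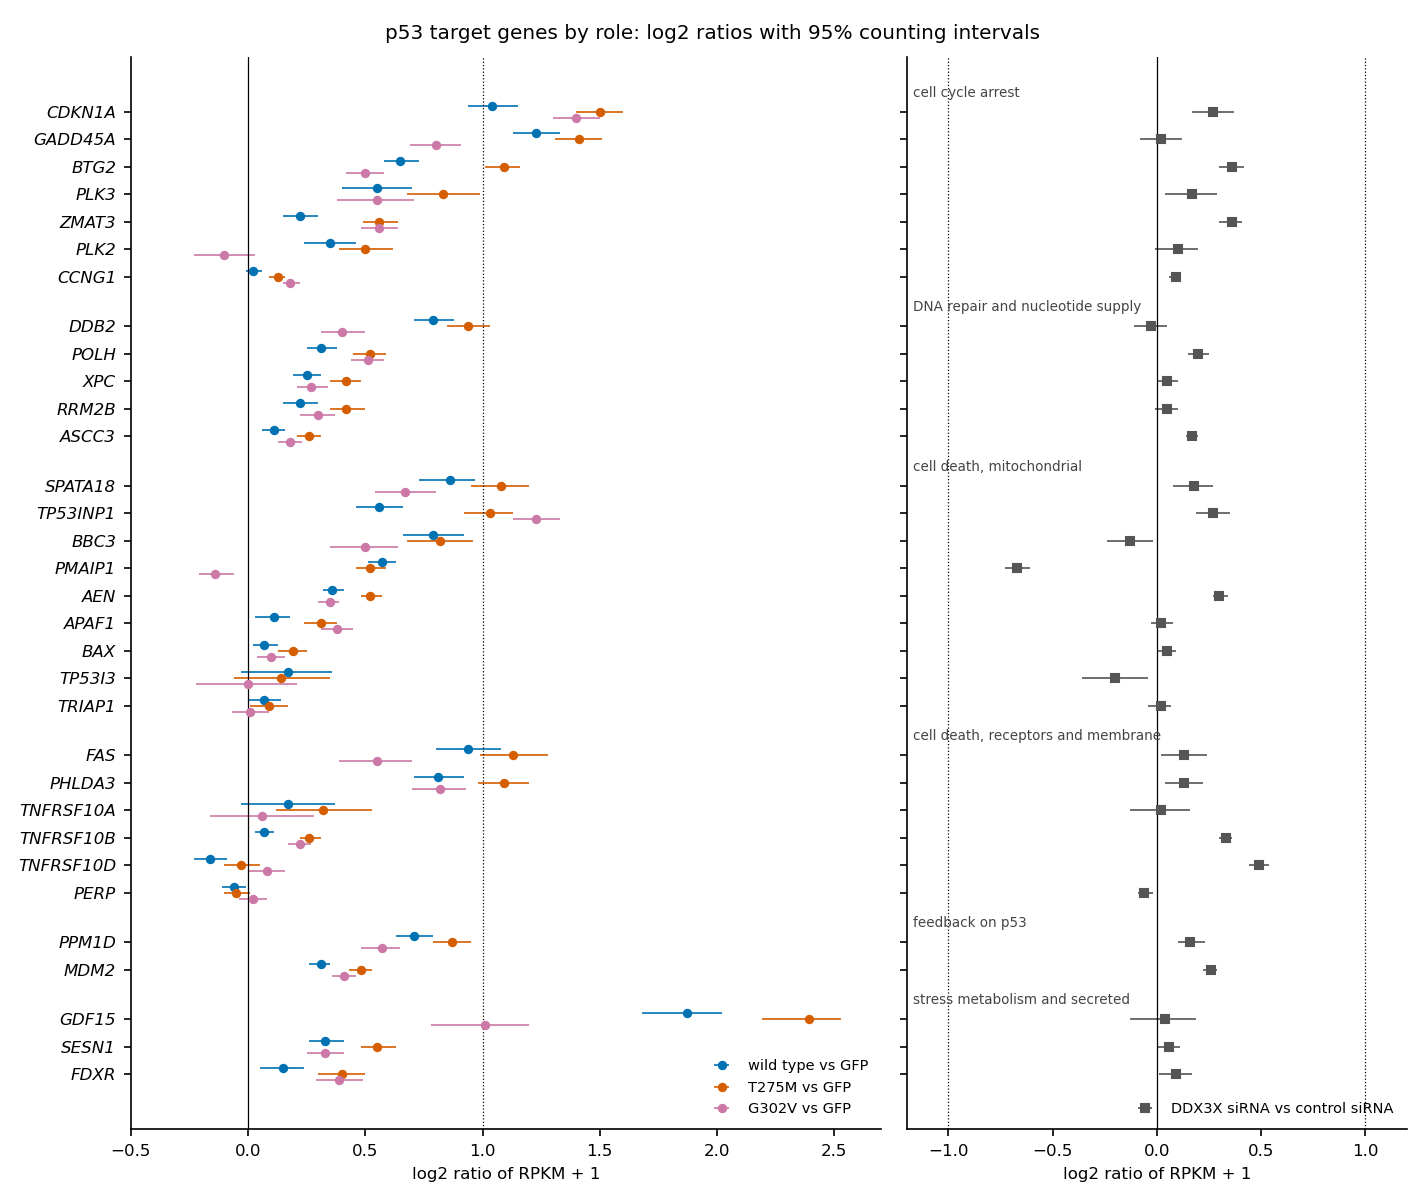
Log2 ratios of RPKM + 1 for the 32 p53 target genes in order of role, with 95% counting intervals, for the 3 constructs against GFP (left) and DDX3X siRNA against control siRNA (right, where SPATA18 and GDF15 are drawn although they were below 1 RPKM). Dotted lines mark 2-fold. CDKN1A, GADD45A and GDF15 reach past the line with wild type, whereas in the right panel no point reaches it and PMAIP1 is lowest at -0.67.

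Both genes that restrain p53 were higher with every construct. MDM2 (chromosome 12, 69201957 to 69239324, plus strand) was at 13.7 and 16.6 RPKM with control and DDX3X siRNA, 13.7 with GFP and 17.2, 19.5 and 18.5 with the constructs. Its ratios to GFP were 0.31 (0.26 to 0.35), 0.48 (0.43 to 0.53) and 0.41 (0.36 to 0.46), and the wild-type library was only just above the DDX3X siRNA library. PPM1D, the phosphatase WIP1 that removes activating phosphates from p53 and its kinases, was at 5.58 and 6.38 RPKM with control and DDX3X siRNA, 6.03 with GFP and 10.5, 11.9 and 9.42 with the constructs. Here the constructs were clearly apart, with ratios of 0.71 (0.63 to 0.79), 0.87 (0.79 to 0.95) and 0.57 (0.48 to 0.65).

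Of the 3 genes of stress metabolism and secretion, GDF15 had the largest ratio of all members. GDF15 (chromosome 19, 18485541 to 18499986, plus strand), a secreted stress cytokine of the TGF-beta family, was at 0.296 RPKM with control siRNA (24 reads), 0.332 with DDX3X siRNA (72 reads), 0.213 with GFP (14 reads), 3.44 with wild type (259 reads), 5.35 with T275M (305 reads) and 1.45 with G302V (76 reads). It was near silent in all 3 libraries without a construct. The log2 ratios to GFP were 1.87 (1.68 to 2.02), 2.39 (2.19 to 2.53) and 1.01 (0.78 to 1.2), and without the added 1 the RPKM ratios were 16.17 (9.47 to 30.00), 25.13 (14.75 to 46.51) and 6.81 (3.82 to 13.05). The width of these intervals comes from the 14 reads in the GFP library. SESN1, a sestrin that restrains mTORC1, was at 16.2, 16.9 and 15.5 RPKM with control siRNA, DDX3X siRNA and GFP, and at 19.8, 23.3 and 19.8 RPKM with the constructs. FDXR, a mitochondrial ferredoxin reductase, had ratios to GFP of 0.15, 0.40 and 0.39.

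Depletion of endogenous DDX3X moved no p53 target gene past 2-fold. With DDX3X siRNA against control siRNA, 0 of 30 members that passed the filter were past 2-fold in either direction, where 0.11% of all genes were. At 1.5-fold, 1 member was lower, PMAIP1, at -0.67 (-0.73 to -0.61), beside 0.961% of all genes, and 0 were higher (1.04% of all genes). The median was 0.09 for members and -0.02 for all genes. Ratios were above 0 for 25 of 30 members against 45.5% of all genes, and with median-ratio scaling for 27 of 30 against 60.3%. Counting intervals lay above 0 for 18 of 30 members, where 32.8% of all genes did.

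The largest positive ratio in the siRNA arm was that of TNFRSF10D, at 0.49 (0.44 to 0.54), which went from 14.3 to 20.5 RPKM. BTG2 and ZMAT3 were both at 0.36 (0.30 to 0.42 and 0.30 to 0.41), TNFRSF10B at 0.33, AEN at 0.30, CDKN1A at 0.27 and MDM2 at 0.26. In TNFRSF10A, TNFRSF10B, TNFRSF10D and ASCC3 the DDX3X siRNA library was the highest of all 6, for which no share over all genes was computed. The TNFRSF10A values were near a tie, at 2.12 RPKM beside 2.09 RPKM with both control siRNA and T275M. In ASCC3 control siRNA came second, at 17.6 RPKM beside 19.9 RPKM with DDX3X siRNA. GADD45A, by contrast, was at 0.02 (-0.08 to 0.12) and DDB2 at -0.03 (-0.11 to 0.05), where wild type had given 1.23 and 0.79 against GFP. BBC3 and TP53I3 were lower, at -0.13 (-0.24 to -0.02) and -0.20 (-0.36 to -0.04). In the same comparison, 3 of 10 genes listed for the stress factors ATF4 and CHOP, both included, were past 2-fold lower (0.063% of all genes). They were CHAC1 (-1.86), SLC7A11 (-1.30) and ASNS (-1.24), and the median of the list was -0.75. Against GFP, the list had medians of 0.24, -0.03 and -0.19 with the constructs, beside 0.05, 0.07 and 0.03 for all genes. PMAIP1 can also be activated by ATF4, and the part of that pathway in its levels was not tested.

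The constructs were next compared directly, which leaves out the shared GFP library. These comparisons still share construct libraries. T275M against wild type and G302V against T275M both rest on the same T275M library, so their shifts are not separate observations. T275M against wild type gave a modest excess across the list. None of the 32 members was past 2-fold (0.0771% of all genes) or past 1.5-fold, 30 were above 0 against 51.4% of all genes, and the median was 0.18 beside 0.00. The count above 0 was also 30 with median-ratio scaling, and 26 intervals lay above 0, against 24% of all genes. The largest differences were those of GDF15 at 0.51 (0.32 to 0.71), TP53INP1 at 0.46 (0.37 to 0.56), CDKN1A at 0.46 (0.38 to 0.54) and BTG2 at 0.43 (0.37 to 0.49). PMAIP1 and TP53I3 were the 2 members below 0, at -0.05 (-0.11 to 0.01) and -0.02 (-0.22 to 0.17), both with intervals that hold 0. T275M was the highest of all 6 libraries for 22 members, a count for which no share over all genes was computed. Some of these rest on near ties, such as BBC3 at 14.8 RPKM with T275M and 14.4 RPKM with wild type.

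G302V against T275M was below 0 for 27 of 32 members, or 23 with median-ratio scaling, and 21 intervals lay below 0, against 31.5% of all genes. GDF15 was past 2-fold lower, at -1.37 (-1.61 to -1.13), as were 0.139% of all genes. At 1.5-fold 6 members were lower against 1.02% of all genes. Besides GDF15, these were PMAIP1 at -0.66 (-0.73 to -0.59), GADD45A at -0.61 (-0.70 to -0.52), PLK2 at -0.60 (-0.73 to -0.48), BTG2 at -0.59 (-0.66 to -0.52) and FAS at -0.59 (-0.73 to -0.44). DDB2 followed at -0.53 (-0.62 to -0.44). CDKN1A, ZMAT3 and POLH, on the other hand, were at -0.10, -0.01 and -0.01, and TP53INP1 was higher at 0.20 (0.11 to 0.30). Above 0 were 41.6% of all genes, and 56.2% with median-ratio scaling.

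**Figure D4:**
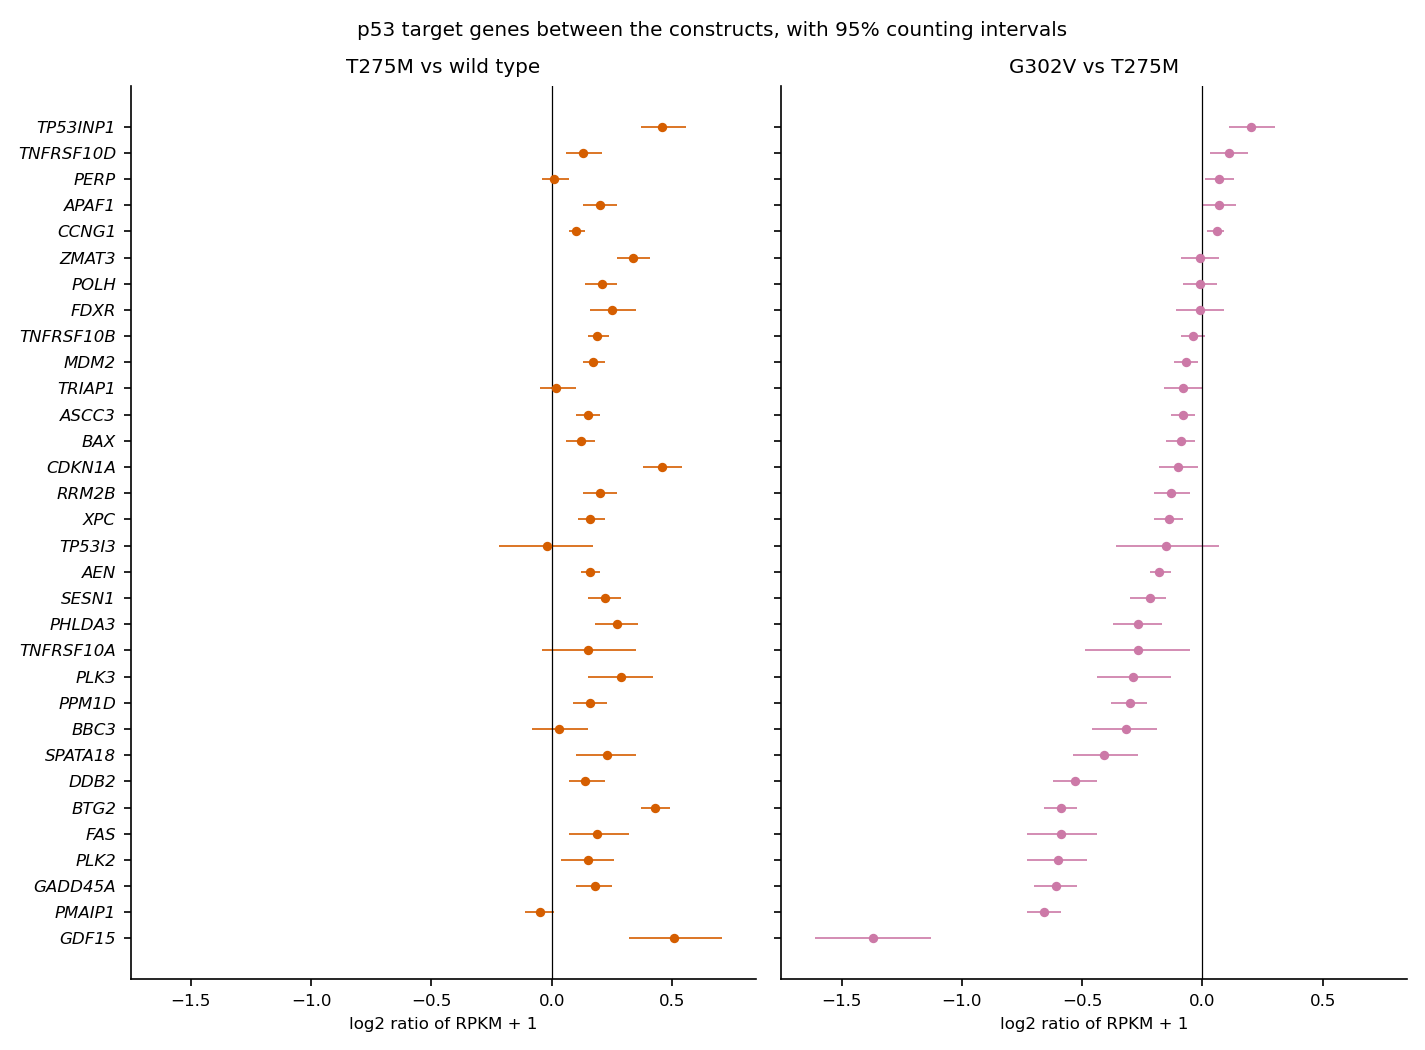
Log2 ratios of RPKM + 1 for the 32 p53 target genes between constructs, T275M against wild type (left) and G302V against T275M (right), with 95% counting intervals. Left points lie mostly between 0 and 0.5, and on the right GDF15 is lowest at -1.37 and TP53INP1 highest at 0.20.

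Against wild type, G302V divided the members evenly. Above 0 were 16 of 32 (42.6% of all genes), or 20 of 32 with median-ratio scaling (54%), and no member was past 2-fold in either direction (0.185% of all genes). At 1.5-fold, TP53INP1 was higher at 0.67 (0.58 to 0.76), beside 0.308% of all genes. GDF15 at -0.86 (-1.10 to -0.61) and PMAIP1 at -0.71 were lower, beside 1.45%. Across the 3 constructs, the order T275M, wild type, G302V held for 14 members, which included GADD45A, BTG2, DDB2, BBC3, FAS, PPM1D and GDF15. The order T275M, G302V, wild type held for 11, which included CDKN1A, ZMAT3, POLH, PHLDA3 and MDM2. No shares of these orders over all genes were computed, and some rest on near ties, such as PHLDA3 at 20.6 RPKM with both G302V and wild type. With median-ratio scaling, the sign of G302V against wild type changed for PLK3, TRIAP1, AEN and SESN1. That of G302V against T275M changed for ZMAT3, POLH, TNFRSF10B and FDXR. DDX3X levels from plasmid and endogenous gene together were 2894, 3279 and 1906 RPKM, so the amount of construct and its sequence cannot be told apart here.

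Members with and without a p53 consensus match had overlapping ratios. The 16 with a match had medians of 0.47, 0.54 and 0.41 against GFP, and the 16 without had 0.21, 0.41 and 0.36. GDF15, CDKN1A and GADD45A hold matches, whereas TP53INP1, PHLDA3, BBC3 and PPM1D, whose levels with the constructs are given above, do not in this window.

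Other genes of the pathway were examined from lists that were also chosen with earlier results of these data known. Of 26 measured further direct p53 targets, none was past 2-fold with any construct (0.232%, 0.294% and 0.0861% of all genes were higher), 24 were above 0 with each (62.1%, 62.2% and 54.8% of all genes), and the medians were 0.23, 0.28 and 0.12, beside 0.05, 0.07 and 0.03 for all genes. The largest of these ratios with wild type and T275M belonged to EDA2R, a receptor of the TNF family, at 0.61, 0.97 and 0.54, and to FBXW7, a ubiquitin ligase subunit, at 0.62, 0.85 and 0.30. Of 19 measured regulators of p53, none was past 2-fold, with medians of 0.07, 0.15 and 0.13 beside 0.05, 0.07 and 0.03 for all genes, and the largest value was 0.63 for the acetyltransferase EP300 with G302V.

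The 12 cell cycle genes that p53 lowers through p21 and the DREAM complex, such as CCNB1 and PLK1, had medians of 0.03, -0.05 and -0.05 in the plasmid arm, and none was past 2-fold. Their intervals lay below 0 for 4, 5 and 6 of 12, against 21.3%, 23.4% and 26.3% of all genes, and above 0 for 5, 3 and 1 of 12, against 41.1%, 44.2% and 35.1%. In the siRNA arm their median was -0.30 and 10 of 12 had intervals below 0, where 40.1% of all genes did. CDKN1A, the gene of p21, was at 0.27 in that comparison. Against GFP it was at 1.04, 1.5 and 1.40 with the constructs, where the medians of the 12 genes were 0.03, -0.05 and -0.05. The part of p21 in the levels of these 12 genes was not tested.

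Between the controls of the arms, GFP against control siRNA, 0 of 30 members were past 2-fold (0.503% of all genes), and the members' median was 0.02 beside 0.01 for all genes. PLK2 at 0.57 (0.44 to 0.69), GADD45A at 0.37 and CDKN1A at 0.36 were the highest, and PERP at -0.39 (-0.43 to -0.34) was the lowest. In this comparison 4 of 11 immediate-early genes were past 2-fold higher (0.432% of all genes), led by EGR1 at 5.27 and FOS at 3.48. With G302V against GFP, 3 of them were past 2-fold lower, EGR1 at -1.29, FOS at -1.24 and FOSB at -1.10 (0.219% of all genes). The list as a whole was not lower, since 6 of the 11 were above 0 (54.8% of all genes). The median of the immediate-early genes with G302V was 0.09, beside 0.03 for all genes. The part of this response in the levels of PLK2 and GADD45A, which serum and stress signals also induce, was not tested.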

How the data were processed

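Per the file headers, the authors deposited RPKM for 39618 RefSeq rows under 23204 symbols in each of 6 libraries. The study's methods call the same normalisation FPKM. Total RNA of HEK293T cells went into TruSeq libraries, and the submitters' processing notes name cutadapt, BWA 0.5.5 and build hg19. RPKM multiplied by row length fell within 0.1 of whole multiples of 1 step for 100.0% of the 9476 to 12114 rows checked per library, which gave reads and depth.

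The members and gene lists were chosen with earlier results of these data known, and roles were set by hand. A gene entered a comparison at 1 RPKM or more and 10 reads or more in at least 1 of the 2 libraries. Log2 ratios used a pseudocount of 1 RPKM, and 2-fold was the threshold. Intervals are exact Clopper-Pearson 95% intervals of the reads, moved to that scale. They cover counting error only, because each group holds 1 library and no spread between cultures enters them. Reads were also not tagged by molecule, which the intervals do not allow for. With 1 library per group no p-value was computed. Levels in all 6 libraries are given for members past 2-fold, or at least 0.5 away from 0 on the log2 scale with an interval that leaves out 0, in any comparison other than that of the controls, and for MDM2 and PPM1D. 1 further gene that this rule takes is not reported here and was left out of the list of regulators. Other members are given by range. DDX3X checks the labels. Of other lists at most 3 genes are named, apart from the neuronal markers, of which more are. ACTA2 and the markers named at or near 0 were named after their values were seen. The consensus search allowed 1 mismatch at first, and 2 were allowed after that result was seen. Positions are those of GENCODE 44 on GRCh37, the build of the files. RRM2B, TNFRSF10B, CCNG1 and BAX also held matches, which are not printed.

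Alternatives were pseudocounts of 0.1 and 10, no filter, a minimum of 10 RPKM, median-ratio scaling, CPM (reads scaled to the library total alone), the sum of rows of a symbol and a 1.5-fold threshold. The versions used were Python 3.11.15, scipy 1.17.1, pandas 2.3.3, numpy 2.4.6 and matplotlib 3.10.9, and the calculations were tested on simulated data.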

Additional observations from a re-analysis of the deposited data

Results flagged for a closer look

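PMAIP1 moved in opposite directions under the same contrast: its log2 ratio to GFP was 0.57 with wild type and 0.52 with T275M, and -0.14 with G302V. The difference was not tested, since each group holds 1 library.
TNFRSF10D was at -0.16 (-0.23 to -0.09) with wild type and 0.08 (0.00 to 0.16) with G302V. Both intervals leave out 0, although the lower bound with G302V rounds to 0.00. The signs of PLK2, PERP and TP53I3 also differed between constructs, with at least 1 of the opposed intervals reaching 0. PLK2 was at 0.35 (0.24 to 0.46) with wild type and -0.10 (-0.23 to 0.03) with G302V.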

How the results depend on the processing

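Counts of members past 2-fold moved by more than 1.5 times under several settings. With a pseudocount of 0.1 they were 5 with wild type against GFP and 1 with G302V against wild type. A pseudocount of 10 left 0, 1 and 0 with wild type, T275M and G302V against GFP and 0 with G302V against T275M, and the members' median minus that of all genes became 0.14, 0.24 and 0.16 for the 3 constructs. A minimum of 10 RPKM, which leaves fewer genes, gave 4 with T275M and 1 with G302V against GFP and 0 with G302V against T275M. Median-ratio scaling gave 5 with T275M, and CPM gave 5 with wild type. At 1.5-fold the counts were 1 for DDX3X siRNA, 10 for wild type and 6 for G302V against GFP, 3 for G302V against wild type and 6 for G302V against T275M. Where no reason is given, the cause was not tested.

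Of 15 single ratios past 2-fold, 14 fell below it with a pseudocount of 10 and 4 with median-ratio scaling. GADD45A with T275M against GFP stayed past 2-fold under every planned setting, and none of the 15 changed sign. Against control siRNA in place of GFP, an alternative chosen after seeing the data, 3, 10 and 3 members were past 2-fold higher with the 3 constructs (0.641%, 0.641% and 0.257% of all genes). GDF15 rests on 14 reads in the GFP library. With 1 library per group, none could be left out. No paired analysis was possible because each group holds 1 library.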
